A study of Danio rerio with 15 samples.

Results

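Whole zebrafish larvae exposed to 10 µM perfluorooctanesulfonic acid (PFOS) were compared with larvae exposed to 5 µM, a doubling of the dose, by RNA-seq at 120 hours post-fertilization (hpf). The comparison rests on 6 of the 15 libraries of the series, 3 for each of these concentrations, chosen by their labels alone. All larvae were of the AB wild-type strain and no other agent or allele is named, so the groups differ in their labels only by the concentration of PFOS. The remaining groups were an untreated control and larvae given 0.1 or 1 µM PFOS, with 3 libraries each, and they enter here through the shared estimate of the spread and as values beside the result. The title of the series sets the work in developmental neurotoxicity. Neither the start of exposure nor the origin of the replicates (clutch, dish or pool) is stated in the labels, and the p-values reflect only how far these libraries vary, in part perhaps for technical reasons.

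PFOS is a synthetic fluorinated surfactant, formerly used in stain repellents and firefighting foams, that binds serum proteins and is cleared slowly from the body. By 120 hpf the larva has hatched, swims freely, and has a working liver, gut, pronephric kidney, retina and lens, while ion uptake from the water still runs largely through ionocytes in the skin. Programmes that commonly answer chemical or nutritional stress in fish include the unfolded protein response, the proteasome, insulin-like growth factor (IGF) binding proteins, acute-phase and complement proteins made by the liver, and the cytochrome P450 enzymes. Because whole bodies were sequenced, fewer cells of a type and less RNA per cell of that type cannot be told apart.

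Levels are given as CPM, read counts scaled to a common library size with factors from the trimmed mean of M-values (TMM), and group values as mean ± SD over n = 3 libraries. The 5 µM libraries are called 5-1, 5-2 and 5-3. The 10 µM libraries are called 10-2, 10-3 and 10-4 after the numbers in their column names, which do not match those in the sample titles. Values of single libraries are given in these orders. Totals ran from 12960818 to 14516361 estimated counts at 5 µM and from 11956657 to 12858343 at 10 µM. All 35 markers of neurons, glia, eye, liver, pancreas, gut, muscle, heart, cartilage, blood, skin, vessels, pigment cells and kidney reached at least 1 CPM in all 6 libraries.

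The libraries of a group did not all lie together. The first principal component, with 27.0% of the variance, set the 10 µM libraries (38.8 to 53.5) apart from the other 12. The second, with 14.2%, held the libraries numbered 1 of control, 0.1, 1 and 5 µM together at 27.3 to 29.7, while the 10 µM group lay between -11.7 and -8.22. That group has no count column numbered 1, although a sample title of the group carries this number. Library 5-3 lay at the other end, at -26.7, so the 5 µM group spanned the whole range of that component. Root-mean-square differences in log2 CPM were 0.463 to 0.548 within the 5 µM group, 0.331 to 0.384 within the 10 µM group and 0.490 to 0.665 between the groups. Among the 11574 genes with a mean of at least 10 CPM, the median coefficient of variation was 10.9% at 5 µM and 7.10% at 10 µM.

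**Figure D1:**
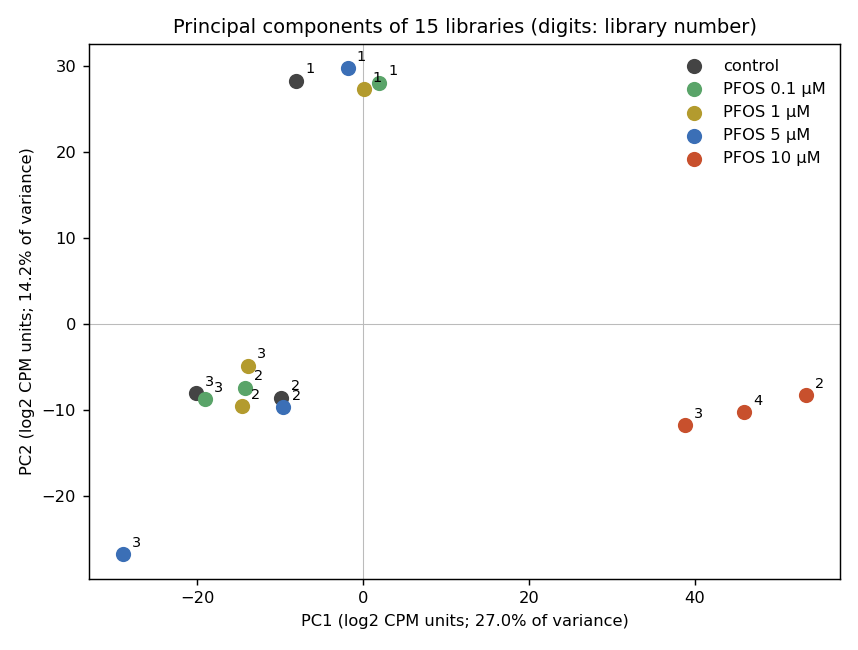
First and second principal components of log2 CPM over all tested genes for the 15 libraries; each point is a library, coloured by group and marked with its number. The 3 libraries at 10 µM lie at 38.8 to 53.5 on the first component, and the 5 µM libraries span -26.7 to 29.7 on the second.

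Library 5-3 stood apart in several tissues. The trypsin gene prss1, a marker of the exocrine pancreas, was at 2798, 2064 and 620.4 CPM at 5 µM and 1813, 1595 and 1786 CPM at 10 µM, and the median over the 29 genes of that tissue in 5-3 was 1.39 log2 units below the mean of the 6 libraries. In the same library the median of the inflammation list was at -0.83, that of complement and acute-phase genes at -0.60 and that of leukocyte markers at -0.48, whereas intestine markers were at 0.39, genes of neurogenesis and Notch signalling at 0.33 and pan-neuronal genes at 0.26. The total and the counts of many lists, though not of all, are therefore given with and without 5-3. The part of this library in any difference between the groups was not tested.

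**Figure D2:**
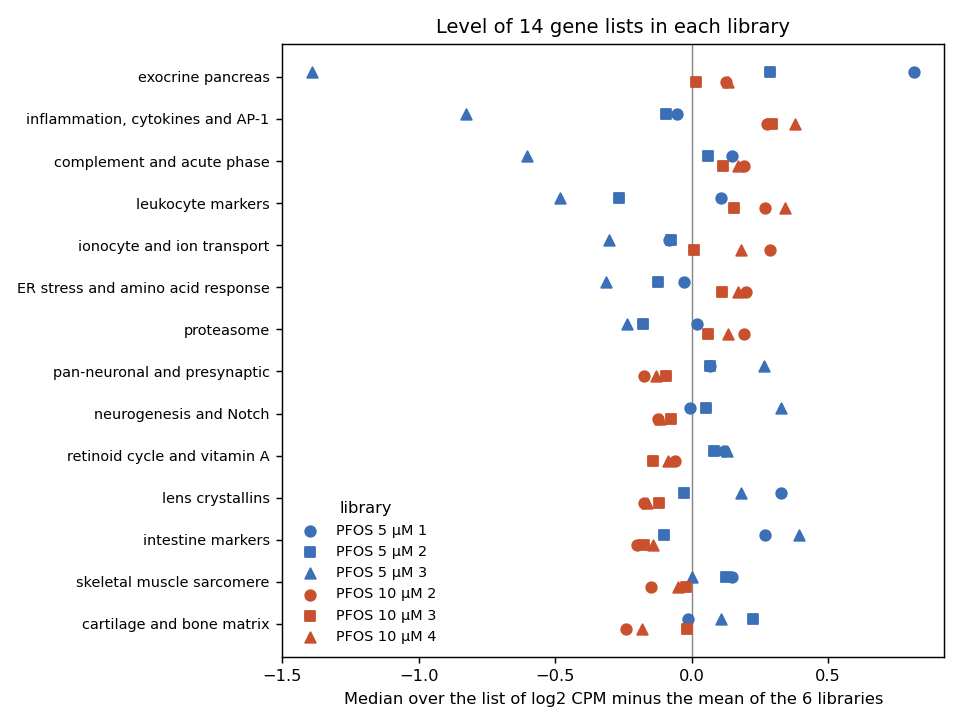
Level of 14 gene lists in each library, as the median over the tested genes of log2 CPM minus the mean of the 6 libraries; blue symbols are 5 µM and red symbols 10 µM libraries. Library 5-3 (blue triangle) is lowest for exocrine pancreas at -1.39 and for inflammation at -0.83 and highest for intestine at 0.39.

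The step from 5 to 10 µM changed many genes in both directions. Of 21477 genes tested with edgeR's quasi-likelihood test, 3309 passed a Benjamini-Hochberg adjusted p of 0.05 (15.4%), 1732 higher at 10 µM (8.06%) and 1577 lower (7.34%). Large rises outnumbered large falls: 1005 of the higher genes and 488 of the lower ones differed at least 1.5-fold, and 370 and 114 at least 2-fold. The median log2 fold change over all tested genes was 0.0065. In 3177 of the 3309 the 3 libraries of a group did not overlap with those of the other; over all genes tested, the 10 µM libraries were all above the 5 µM libraries in 3599 (16.8%) and all below in 3293 (15.3%).

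By the same edgeR model no gene passed for 5 µM against control (0.0%). There 837 genes, 3.90% of those tested, had an unadjusted p under 0.05, and DESeq2 called 12. For 10 µM against control 3098 passed (14.4%), 7.78% of all genes higher and 6.65% lower. These comparisons share libraries with the present one and their values are given only side by side. The 3309 calls fell to 1575 without 5-3, to 1092 without 10-2 and to 1821 without 10-4, and 1807 passed with the 6 libraries alone. Without 5-3 all 3309 genes kept their sign, 1466 of them were still called, and the median ratio of the 2 log2 fold changes was 0.885. Keeping the sign says little, because in 3177 of these genes the groups did not overlap with 5-3 included.

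The genes with the largest rises came from several systems: lectins, ferritin, IGF binding, innate immunity and sterol metabolism. The IGF-binding protein gene igfbp1b, whose product holds IGF away from its receptor, was at 13.9, 15.2 and 6.07 CPM at 5 µM and 77.5, 49.4 and 74.1 CPM at 10 µM. It rose from 11.7 ± 4.94 to 67.0 ± 15.3 CPM (log2 fold change 2.52, SE 0.28, adjusted p = 0.000219), with 7.57 ± 2.19 CPM in controls. The ferritin-like gene fthl29, of the family of iron-storing proteins, was at 28.0, 25.2 and 3.17 CPM at 5 µM and 127, 106 and 126 CPM at 10 µM. All 10 µM libraries were more than 3 times the highest 5 µM library for both genes, and 5-3 was the lowest (log2 fold change 2.68, adjusted p = 0.00438).

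The jacalin-like lectin genes jac9 and jac1 rose from 0.770 ± 0.790 to 12.2 ± 5.63 CPM (log2 fold change 3.99, SE 0.48, adjusted p = 0.000366) and from 0.347 ± 0.232 to 1.91 ± 0.425 CPM (log2 fold change 2.45, SE 0.53, adjusted p = 0.00777). The 5 µM libraries themselves ran from 0.0743 to 1.63 CPM for jac9, so its base level is known only roughly. Library 10-2 had the highest level of both. The largest fitted rise was that of hspa12a.2, an atypical relative of the HSP70 chaperones, at 0, 0.155 and 0.0675 CPM at 5 µM and 1.37, 2.35 and 2.52 CPM at 10 µM. It had 3 reads in the 5 µM group against 80 at 10 µM, a ratio of 28.7 with a 95% exact interval of 9.46 to 142 that covers counting error only (log2 fold change 4.67, adjusted p = 0.00128). KYAT3, which encodes a kynurenine aminotransferase, likewise had 3 reads against 40, a ratio of 14.3 (4.56 to 72.4; log2 fold change 3.69, adjusted p = 0.0183). Fitted fold changes at so few reads depend on the prior count, and the call of KYAT3 was lost without 5-2 or 10-2.

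Signals and sensors of innate immunity were also among the 14 largest rises. The neutrophil attractant cxcl8b.1 was at 3.05, 3.18 and 1.01 CPM at 5 µM and 13.3, 9.54 and 10.2 CPM at 10 µM and rose at 10 µM (log2 fold change 2.20, SE 0.39, adjusted p = 0.00302). The chemokine gene ccl34a.4 (log2 fold change 2.28, adjusted p = 0.0121), the cytosolic DNA sensor gene cgas (log2 fold change 2.65, adjusted p = 0.0123) and ch25h, whose enzyme makes 25-hydroxycholesterol (log2 fold change 2.29, adjusted p = 0.00847), rose with it. The rest were pappab, whose mammalian counterpart is a protease that cleaves IGF binding proteins (log2 fold change 2.18, adjusted p = 0.00941), the membrane protein gene ms4a17a.5 (log2 fold change 2.25, adjusted p = 0.00309), the transcription factor gene onecut2 (log2 fold change 2.21, adjusted p = 0.0134) and the secreted phosphoprotein gene scpp8 (log2 fold change 2.17, adjusted p = 0.0238). The calls of cgas and onecut2 were lost without 10-2 and that of scpp8 without 5-1, 5-3, 10-2 or 10-4.

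The largest falls were a calcium-regulating hormone, fish cytochrome P450 genes and hatching enzymes. The stanniocalcin gene stc1l, whose hormone in fish restrains calcium uptake, was at 2.01, 2.02 and 9.71 CPM at 5 µM and 0.0806, 0 and 0.153 CPM at 10 µM. The 10 µM group held 3 reads of it against 197 at 5 µM, a ratio of 61.1 with an exact interval of 20.6 to 299 (log2 fold change -5.74, adjusted p = 0.00601), and controls had 5.73 ± 2.26 CPM. Library 5-3 had the highest level, and the groups did not overlap.

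The 3 members of the cyp2aa family named here lie beside each other on chromosome 23. They were picked as falls, so their shared direction follows from the choice, and other members of the family are not described. The 10 µM level was lowest for cyp2aa8, at 32.3, 40.7 and 8.03 CPM at 5 µM and 1.21, 2.50 and 1.83 CPM at 10 µM (log2 fold change -3.85, SE 0.65, adjusted p = 0.00228), followed by cyp2aa9 (log2 fold change -2.12, adjusted p = 0.0208) and cyp2aa4 (log2 fold change -2.42, adjusted p = 0.00332). By the deposited coordinates (build not named in the sources used here), cyp2aa8 spans 42336142 to 42409339 and contains cyp2aa4 (42362337 to 42372651) on the same strand, so reads may be split between them and the 3 falls are not independent. The hatching enzyme genes he1.2 (log2 fold change -2.54, adjusted p = 0.00659) and he1.1 (log2 fold change -1.93, adjusted p = 0.0265), neighbours on chromosome 22 with the same limit, encode proteases that soften the egg envelope. Of he1.1 there were 13.6, 33.9 and 59.4 CPM at 5 µM and 9.99, 8.14 and 10.1 CPM at 10 µM. The call of cyp2aa9 was lost without 5-1, 5-2, 10-2 or 10-4 and that of he1.1 without 5-3, 10-2, 10-3 or 10-4.

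The fall with the smallest p was that of slc15a2, which encodes a proton-coupled peptide transporter of kidney and brain. It stood at 19.2, 19.01 and 26.1 CPM at 5 µM and 5.64, 5.24 and 5.80 CPM at 10 µM, and 19.4 ± 1.33 CPM in controls. It fell from 21.4 ± 4.05 to 5.56 ± 0.286 CPM (log2 fold change -1.95, SE 0.15, adjusted p = 1.37e-05). The related lysosomal transporter slc15a4 rose from 5.72 ± 0.495 to 12.5 ± 0.908 CPM (log2 fold change 1.13, SE 0.13, adjusted p = 0.000215). Other large falls were itln2, an intelectin lectin (log2 fold change -2.93, adjusted p = 0.0242), UBLCP1, a phosphatase gene (log2 fold change -2.44, adjusted p = 0.00741), and the water channel aqp8b (log2 fold change -2.29, adjusted p = 0.0187). The level of itln2 was low, at 1.78, 1.01 and 0.405 CPM at 5 µM and 0.0806, 0.313 and 0 CPM at 10 µM. The size of its fall is therefore known only roughly. Further large falls were those of duox, whose enzyme makes hydrogen peroxide (log2 fold change -1.99, adjusted p = 0.0177), znf1124, a zinc finger gene (log2 fold change -1.93, adjusted p = 0.0148), and the apolipoprotein B gene apobb.2 (log2 fold change -1.84, adjusted p = 0.00276). The call of itln2 was lost without 5-1, 10-2 or 10-4, that of aqp8b without 5-3, 10-2 or 10-4 and with these 6 libraries alone, that of duox without 5-2 or 10-2 and that of znf1124 without 5-2, 10-2 or 10-3.

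The genes with the smallest p-values were spread over several functions. The complement gene c7b, a component of the membrane attack complex, was at 15.2, 14.8 and 8.63 CPM at 5 µM and 55.2, 41.6 and 49.7 CPM at 10 µM (log2 fold change 1.93, SE 0.18, adjusted p = 9.45e-05). Also higher were the kinase gene cdc42bpaa, from 3.71 ± 0.580 to 12.05 ± 2.16 CPM (log2 fold change 1.69, adjusted p = 9.45e-05), and the cystatin gene cst14b.1, from 2.85 ± 0.327 to 11.5 ± 3.28 CPM (log2 fold change 2.00, adjusted p = 0.000215). Lower were sparcl1, a matricellular protein gene, from 38.0 ± 0.630 to 20.2 ± 1.41 CPM (log2 fold change -0.91, adjusted p = 9.45e-05), the monoamine oxidase gene mao, from 95.4 ± 2.50 to 48.0 ± 5.40 CPM (log2 fold change -0.99, adjusted p = 0.000134), and the corneal and connective tissue proteoglycan gene lum, from 64.3 ± 4.34 to 34.6 ± 6.10 CPM (log2 fold change -0.89, adjusted p = 0.000344). For mao the 5 µM level also lay above that of controls, at 75.6 ± 4.63 CPM. Each of these calls held in the 6 fits that left out 1 library and with the 6 libraries alone.

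The 50 gene lists are described by how many tested members passed in each direction, beside 8.06% higher and 7.34% lower among all genes tested and an overall median of 0.0065. The lists with the largest positive medians were inflammation, leukocyte markers, ionocytes, cholesterol synthesis, the response to endoplasmic reticulum (ER) stress and the proteasome. Those with the largest negative medians were intestine markers, lens crystallins, clustered protocadherins, cartilage and bone matrix, glia, and pan-neuronal genes.

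**Figure D3:**
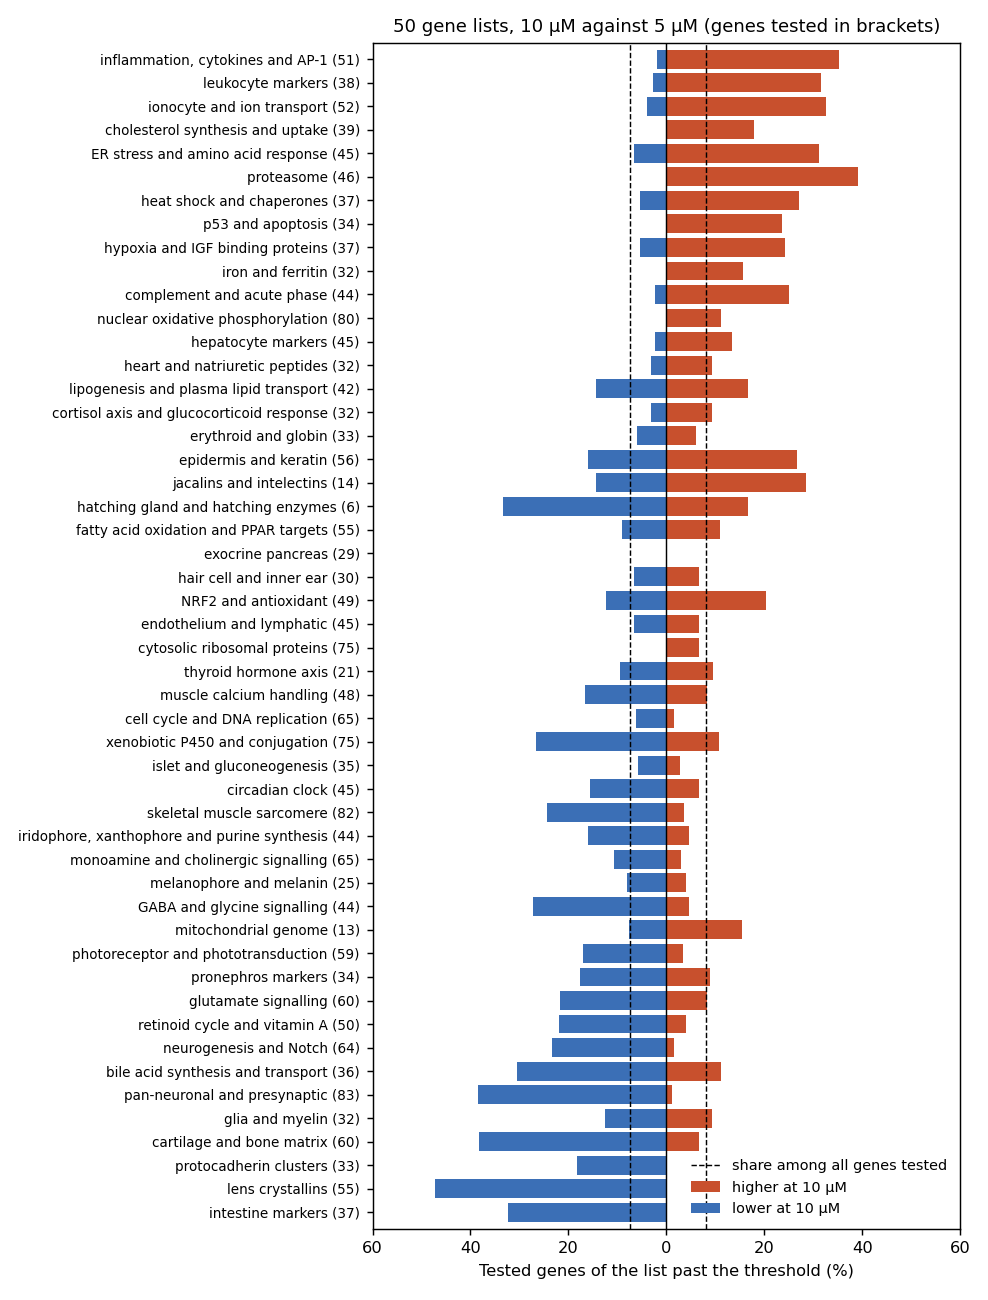
Percentage of the tested genes of each of 50 lists that passed the threshold, higher at 10 µM to the right in red and lower to the left in blue, ordered by median log2 fold change; dashed lines mark 8.06% and 7.34%, the shares among all genes tested. The proteasome has 39.1% higher and none lower, and the lens crystallins 47.3% lower and none higher.

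Genes of inflammation were higher in part at 10 µM, among them AP-1 transcription factors, prostaglandin enzymes and chemokines. Of the list, 18 of 51 tested genes rose and 1 fell (median log2 fold change 0.54), 35.3% of it higher. The AP-1 subunit gene fosl1a was at 11.2, 15.7 and 4.45 CPM at 5 µM and 49.1, 34.5 and 42.2 CPM at 10 µM and rose (log2 fold change 2.02, SE 0.38, adjusted p = 0.00374). Its partner junba rose from 36.8 to 81.7 CPM (log2 fold change 1.15, adjusted p = 0.0103), and the prostaglandin-forming enzyme gene ptgs2b from 25.6 ± 11.4 to 71.5 ± 9.42 CPM (log2 fold change 1.48, adjusted p = 0.0046).

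Among further genes of the list, the calls of mmp9 and il1b were less certain. The matrix protease gene mmp9 was at 28.4, 50.7 and 11.0 CPM at 5 µM and 117, 94.6 and 95.3 CPM at 10 µM (log2 fold change 1.78, adjusted p = 0.0201). The cytokine gene il1b was at 1.71, 3.03 and 0.742 CPM at 5 µM and 6.85, 4.69 and 5.57 CPM at 10 µM (log2 fold change 1.66, adjusted p = 0.0326). Smaller rises were measured for socs3b, a feedback inhibitor of cytokine signalling (log2 fold change 0.67, adjusted p = 0.00358), ptges (log2 fold change 0.78, adjusted p = 0.00384) and timp2b, an inhibitor of matrix proteases (log2 fold change 1.29, adjusted p = 0.00505). Library 5-3 was the lowest for each of these genes but ptges. The 18 rises of the list became 8 without 5-3, 9 without 10-2 and 10 without 10-4. The call of mmp9 was lost without 5-3 or 10-2 and that of il1b without 5-1, 5-3, 10-2 or 10-4.

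Complement, acute-phase and leukocyte genes were higher in part. Of the complement and acute-phase list, 11 of 44 tested genes rose and 1 fell (median log2 fold change 0.16). Besides c7b, the rises included c4b, which acts early in the classical and lectin pathways, from 16.7 ± 6.41 to 40.6 ± 10.1 CPM (log2 fold change 1.29, adjusted p = 0.00325), c6, another component of the membrane attack complex (log2 fold change 0.57, adjusted p = 0.00346), and the fibrinogen chain gene fga (log2 fold change 0.76, adjusted p = 0.00981). The only fall was that of itln2, and the call of fga was lost without 10-2. The chemotaxin gene lect2l, made in liver and neutrophils, was at 28.5, 18.9 and 12.3 CPM at 5 µM and 65.7, 45.0 and 73.0 CPM at 10 µM (log2 fold change 1.62, SE 0.24, adjusted p = 0.00131).

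Among markers of leukocytes, 12 of 38 tested genes rose and 1 fell (median log2 fold change 0.47). The macrophage and cathepsin genes marco (log2 fold change 1.15, adjusted p = 0.00688), csf1ra (log2 fold change 0.66, adjusted p = 0.00872) and ctss2.1 (log2 fold change 1.19, adjusted p = 0.00375) rose, as did the neutrophil myeloperoxidase gene mpx, from 15.2 ± 3.74 to 25.9 ± 3.38 CPM (log2 fold change 0.77, adjusted p = 0.0389). The macrophage marker mpeg1.1 did not pass (log2 fold change 0.30, adjusted p = 0.325). It was at 11.8, 11.3 and 7.69 CPM at 5 µM and 12.6, 12.2 and 13.0 CPM at 10 µM. The median of the leukocyte list was at -0.48 in 5-3, -0.27 in 5-2 and 0.11 in 5-1, while the 10 µM libraries were at 0.16 to 0.34. The complement rises became 5 without 5-3, 4 without 10-2, 5 without 10-4 and 7 with these 6 libraries alone. The leukocyte rises became 7 without 5-3 and 4 without 10-2. The calls of marco and csf1ra were lost without 10-2 and that of mpx without 5-2, 5-3, 10-2, 10-3 or 10-4.

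Among the stress lists, the calls of the proteasome, which degrades tagged proteins, were all higher. Of its subunits and activators, 18 of 46 tested genes rose and 0 fell (median log2 fold change 0.27), and 44 of 46 had a positive log2 fold change. The largest difference was that of the activator gene psme4a, at 48.8, 84.7 and 42.4 CPM at 5 µM and 166, 129.5 and 169 CPM at 10 µM (log2 fold change 1.40, SE 0.22, adjusted p = 0.00175). Subunit genes moved by less, with log2 fold changes of 0.51 for psmd11a and 0.48 for psmd3, both of the regulatory particle (adjusted p = 0.00402 and 0.0104, the latter lost without 10-2). The 18 rises became 29 without 5-1, 10 without 5-2, 5 without 5-3, 4 without 10-2, 9 without 10-4 and 6 with these 6 libraries alone.

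Of the list for ER stress and the amino acid response, 14 of 45 tested genes rose and 3 fell (median log2 fold change 0.27). The translation inhibitor gene eif4ebp3l was at 42.1, 35.1 and 32.5 CPM at 5 µM and 72.7, 62.8 and 68.8 CPM at 10 µM (log2 fold change 0.90, SE 0.11, adjusted p = 0.00038). The asparagine synthetase gene asns (log2 fold change 0.60, adjusted p = 0.00713), the nutrient sensor gene sesn2 (log2 fold change 0.87, adjusted p = 0.00346), ppp1r15b, whose product helps restore translation (log2 fold change 1.31, adjusted p = 0.00655), the transcription factor gene cebpb (log2 fold change 1.22, adjusted p = 0.00866) and hspa5, the main chaperone of the ER (log2 fold change 0.63, adjusted p = 0.014), all rose. The 14 rises became 8 without 5-3, 5 without 10-2 and 8 without 10-4. The call of hspa5 was lost without 5-3 or 10-2.

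Heat shock and chaperone genes were higher in part but did not all move together. Of the heat shock list, 10 of 37 tested genes rose and 2 fell (median log2 fold change 0.21). The co-chaperone genes dnajb1b (log2 fold change 0.65, adjusted p = 0.0038) and hspe1, a mitochondrial chaperonin subunit (log2 fold change 0.52, adjusted p = 0.00224), rose, but hsp90aa1.1 fell from 91.2 ± 7.66 to 46.3 ± 4.57 CPM (log2 fold change -0.98, SE 0.17, adjusted p = 0.00255). In zebrafish hsp90aa1.1 is expressed mainly in striated muscle, where it works with unc45b in folding myosin, and unc45b fell from 22.4 ± 2.24 to 12.7 ± 0.702 CPM (log2 fold change -0.82, adjusted p = 0.00447).

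Oxidative stress genes were split. Of the NRF2 and antioxidant list, 10 of 49 tested genes rose and 6 fell (median log2 fold change -0.052). In it nqo1, a quinone reductase gene and a common NRF2 target, rose from 71.5 ± 18.1 to 115 ± 11.9 CPM (log2 fold change 0.68, adjusted p = 0.00988) and the autophagy receptor gene sqstm1 from 70.7 ± 1.53 to 127 ± 8.90 CPM (log2 fold change 0.85, adjusted p = 0.0051). The catalase gene cat fell from 111 ± 4.55 to 84.7 ± 7.53 CPM (log2 fold change -0.38, adjusted p = 0.0259). Of the p53 and apoptosis list, 8 of 34 tested genes rose and 0 fell (median log2 fold change 0.20), among them gadd45aa, a growth arrest gene (log2 fold change 0.94, adjusted p = 0.0064), and pmaip1, a BH3-only death gene (log2 fold change 0.99, adjusted p = 0.00847). The heat shock rises became 3 without 10-2, those of NRF2 genes 3 without 10-2 and those of p53 genes 4 without 5-3, 2 without 10-2, 3 without 10-4 and 4 with these 6 libraries alone. The call of cat was lost without 5-1, 5-2, 10-2 or 10-4.

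IGF binding proteins and targets of hypoxia, groups that in fish also answer fasting, were higher in part. Of that list, 9 of 37 tested genes rose and 2 fell (median log2 fold change 0.19). The paralogue igfbp1a was at 51.4, 49.4 and 25.2 CPM at 5 µM and 117, 83.3 and 109.8 CPM at 10 µM (log2 fold change 1.301, SE 0.26, adjusted p = 0.00506), and igfbp5a rose from 10.2 ± 6.21 to 28.7 ± 1.77 CPM (log2 fold change 1.51, adjusted p = 0.00719). The oxygen-dependent hydroxylase gene egln3 (log2 fold change 1.24, adjusted p = 0.00359) and ndrg1b (log2 fold change 0.87, adjusted p = 0.000918) rose as well. For igfbp1a, egln3 and ndrg1b library 5-3 was the lowest of the 6. The 9 rises became 5 without 5-3, 5 without 10-2, 5 without 10-4 and 5 with these 6 libraries alone.

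Ionocyte genes were higher in part. Of the ionocyte list, 17 of 52 tested genes rose and 2 fell (median log2 fold change 0.37), 32.7% of it higher. The vitamin D-degrading enzyme gene cyp24a1 was at 16.7, 31.7 and 14.9 CPM at 5 µM and 71.0, 82.4 and 87.6 CPM at 10 µM (log2 fold change 1.94, SE 0.28, adjusted p = 0.0012), with 15.1 ± 4.56 CPM in controls. The epithelial calcium channel gene trpv6 was at 122, 178 and 15.4 CPM at 5 µM and 383, 352 and 406 CPM at 10 µM. All 3 libraries at 10 µM were above those at 5 µM, but 5-3 lay far below 5-1 and 5-2 (log2 fold change 1.86, SE 0.53, adjusted p = 0.0295). The ionocyte marker foxi3b did not pass (log2 fold change 0.53, adjusted p = 0.105). It was at 39.3, 36.1 and 15.6 CPM at 5 µM and 45.1, 45.8 and 40.4 CPM at 10 µM.

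Other rises of the list included genes known from acid-secreting ionocytes, chosen in part after their values were seen. The ammonia channel gene rhcgb was at 31.5, 40.1 and 18.6 CPM at 5 µM and 79.4, 65.3 and 66.0 CPM at 10 µM (log2 fold change 1.23, SE 0.19, adjusted p = 0.00179). The transcription factor gene gcm2, which directs that cell type, rose from 13.9 ± 5.34 to 30.6 ± 2.44 CPM (log2 fold change 1.14, adjusted p = 0.00225), and the carbonic anhydrase gene ca2 from 69.8 ± 17.4 to 131 ± 20.01 CPM (log2 fold change 0.91, adjusted p = 0.00257). The sodium and chloride cotransporter gene slc12a10.2 of another ionocyte class rose from 40.8 ± 19.2 to 89.7 ± 10.9 CPM (log2 fold change 1.14, adjusted p = 0.011). Subunits of the sodium pump differed in direction: atp1b1b (log2 fold change 0.72, adjusted p = 0.00224) and atp1a1a.3 (log2 fold change 0.72, adjusted p = 0.00442) rose, and atp1a1a.4, which kidney also uses, fell (log2 fold change -0.48, adjusted p = 0.011). The other stanniocalcin gene that passed, stc2b, rose from 5.31 ± 2.58 to 15.3 ± 0.995 CPM (log2 fold change 1.53, adjusted p = 0.00223). The 17 rises of the list became 8 without 10-2 and 10 with these 6 libraries alone. The call of slc12a10.2 was lost without 10-2 and that of atp1a1a.4 without 5-3 or 10-2 and with these 6 libraries alone, and that of trpv6 without 10-2, 10-3 or 10-4 and with these 6 libraries alone.

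Ferritin genes were higher in a single cluster. Of the iron list, 5 of 32 tested genes rose and 0 fell (median log2 fold change 0.17), and all 5 were ferritin heavy-like genes that lie beside each other on chromosome 3, fthl27 to fthl31. After fthl29 the rises were those of fthl30, at 2.90, 2.48 and 1.55 CPM at 5 µM and 8.38, 7.90 and 8.01 CPM at 10 µM (log2 fold change 1.81, adjusted p = 0.00223), fthl31 (log2 fold change 1.31, adjusted p = 0.00209), fthl28 (log2 fold change 0.99, adjusted p = 0.0211) and fthl27 (log2 fold change 0.81, adjusted p = 0.0129). Close relatives in a cluster can share reads, so the 5 values may not be independent. The call of fthl28 was lost without 10-2 and with these 6 libraries alone and that of fthl27 without 10-2, and 3 higher and 0 lower passed without 10-2. The jacalin-like lectin genes, on chromosome 7, carry the same limit. Of a list of jacalins, intelectins, galectins and lect2l, 4 of 14 tested genes rose and 2 fell (median log2 fold change 0.044). The rises included that of lect2l and the falls that of a galectin, so these counts are not those of jacalins and intelectins alone. Without 10-2, 3 higher and 0 lower passed.

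Liver, bile acid and lipid genes moved in both directions. Of the bile acid list, 4 of 36 tested genes rose and 11 fell (median log2 fold change -0.26). The gene cyp7a1, for the rate-limiting enzyme of bile acid synthesis, was at 92.3, 88.4 and 66.9 CPM at 5 µM and 42.1, 43.6 and 52.8 CPM at 10 µM (log2 fold change -0.84, SE 0.19, adjusted p = 0.0093). The gut bile acid carrier gene slc10a2 fell from 15.5 ± 3.57 to 7.61 ± 1.43 CPM (log2 fold change -1.03, adjusted p = 0.00368), and the cytosolic bile acid binder gene fabp6 from 202 ± 51.6 to 124 ± 20.4 CPM (log2 fold change -0.71, adjusted p = 0.0189). The gene fgf19, whose hormone restrains bile acid synthesis in mammals, fell from 1.54 ± 0.109 to 0.443 ± 0.116 CPM (log2 fold change -1.77, adjusted p = 0.0137). The bile salt export pump gene abcb11b stood at 55.4, 50.6 and 47.5 CPM at 5 µM and 44.4, 51.8 and 43.0 CPM at 10 µM and did not pass (adjusted p = 0.473). The 11 falls became 3 without 5-3, 2 without 10-2, 7 without 10-3 and 6 without 10-4. The calls of cyp7a1 and fgf19 were lost without 10-2 and that of fabp6 without 5-3, 10-2 or 10-3.

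Of the P450 and conjugation list, 8 of 75 tested genes rose and 20 fell (median log2 fold change -0.091). Beyond the cyp2aa cluster, cyp4v8 was at 86.1, 63.2 and 63.4 CPM at 5 µM and 28.4, 37.6 and 32.4 CPM at 10 µM (log2 fold change -1.11, SE 0.14, adjusted p = 0.000561). The glutathione transferase gene gstr fell from 170.1 ± 9.18 to 104 ± 9.43 CPM (log2 fold change -0.70, adjusted p = 0.00131). The dioxin-responsive cyp1a differed little, from 53.9 ± 4.86 to 42.9 ± 4.31 CPM (log2 fold change -0.33, adjusted p = 0.0246). Rises in the list included cyp2k6 (log2 fold change 1.46, adjusted p = 0.0443) and cyp2x12 (log2 fold change 1.46, adjusted p = 0.0245), so the direction was not shared by the family. The 20 falls became 12 without 5-1, 12 without 5-3, 6 without 10-2 and 12 without 10-4. The call of cyp1a was lost without 5-1, 5-3, 10-2 or 10-3 and with these 6 libraries alone, that of cyp2k6 without 5-2, 5-3, 10-2, 10-3 or 10-4 and with DESeq2 and that of cyp2x12 without 5-2, 5-3, 10-2 or 10-4.

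Among genes of lipid synthesis and plasma lipids, 7 of 42 tested genes rose and 6 fell (median log2 fold change 0.11). The enzyme gene elovl2, which lengthens polyunsaturated fatty acids, was at 33.6, 18.002 and 32.4 CPM at 5 µM and 11.8, 11.1 and 10.8 CPM at 10 µM (log2 fold change -1.32, SE 0.23, adjusted p = 0.00253). Its 5 µM level was above that of controls (14.3 ± 0.969 CPM), but that difference had an adjusted p of 0.823. The desaturase gene fads2 of the same pathway was at 53.5, 26.2 and 56.7 CPM at 5 µM and 18.2, 21.98 and 19.2 CPM at 10 µM (log2 fold change -1.20, adjusted p = 0.0337), with 16.4 ± 7.81 CPM in controls. The plasma enzyme gene lcat, which esterifies cholesterol on lipoproteins, rose from 18.2 ± 7.84 to 46.2 ± 2.92 CPM (log2 fold change 1.35, adjusted p = 0.00228). The list gave 2 higher and 4 lower without 5-3 and 2 higher and 3 lower without 10-2. The call of fads2 was lost without 5-1, 5-3, 10-2, 10-3 or 10-4.

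Cholesterol synthesis genes were higher where they passed: 7 of 39 tested genes rose and 0 fell (median log2 fold change 0.32), including hmgcs1, for an early enzyme of the pathway (log2 fold change 0.82, adjusted p = 0.01), and the lipoprotein receptor gene ldlrb (log2 fold change 0.96, adjusted p = 0.0104). Both calls were lost without 10-2, where 1 of the 7 rises was left. Of hepatocyte markers, 6 of 45 tested genes rose and 1 fell (median log2 fold change 0.15). In it serpina1l rose from 150.2 ± 26.4 to 303 ± 53.2 CPM (log2 fold change 1.01, adjusted p = 0.00224). The liver fatty acid binder gene fabp10a was at 509, 395 and 347 CPM at 5 µM and 459, 424 and 507 CPM at 10 µM (adjusted p = 0.526). Of genes for fatty acid oxidation, 6 of 55 tested genes rose and 5 fell (median log2 fold change -0.0018), with rises of pdk4, which holds back glucose oxidation (log2 fold change 0.65, adjusted p = 0.00358), and cpt1b, the muscle carnitine transferase gene (log2 fold change 0.56, adjusted p = 0.00657). The PPAR target gene angptl4 did not pass, at 146, 144 and 137 CPM at 5 µM and 146, 159 and 183 CPM at 10 µM (adjusted p = 0.25). Hepatocyte markers gave 3 higher and 4 lower without 5-3 and 2 higher and 0 lower without 10-2, and fatty acid oxidation 6 higher and 1 lower without 5-3.

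**Figure D4:**
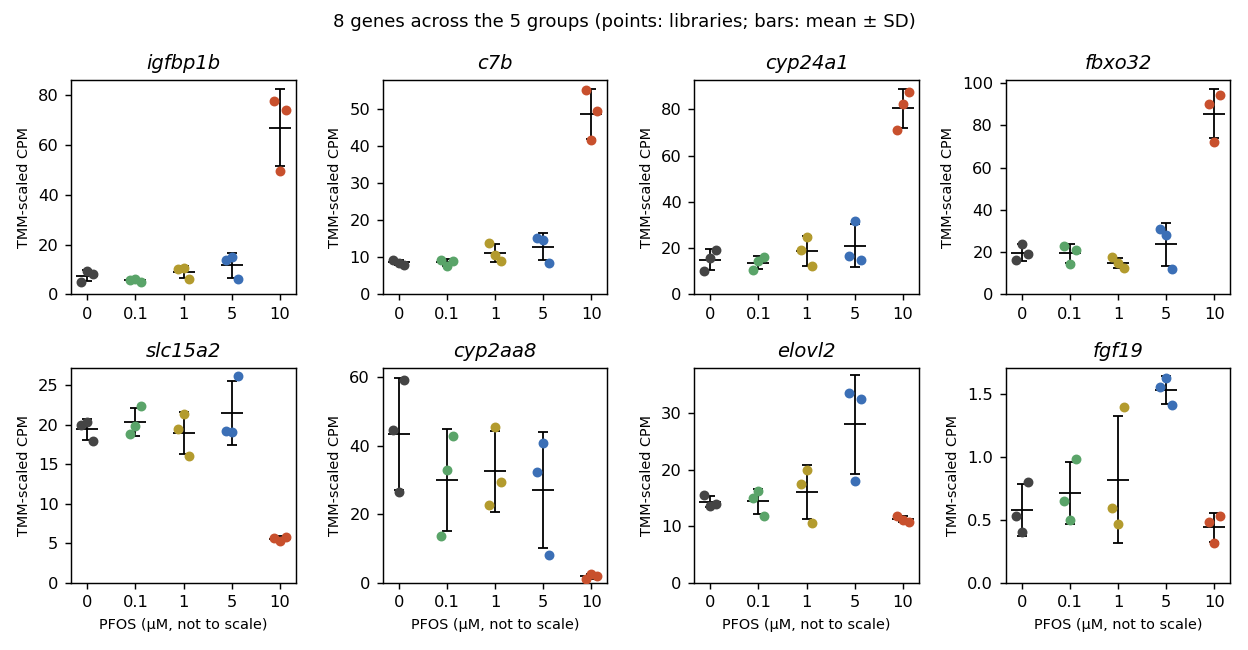
TMM-scaled CPM of 8 genes in all 5 groups (concentration not to scale); points are libraries, and bars are the mean and SD of 3 libraries. In igfbp1b, c7b, cyp24a1, fbxo32, slc15a2 and cyp2aa8 the 10 µM libraries stand apart from all other groups, whereas in elovl2 and fgf19 the 5 µM mean is the highest of the 5.

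The intestine markers that passed were all lower. Of the intestine markers, 0 of 37 tested genes rose and 12 fell (median log2 fold change -0.39), 32.4% of them lower. The microvillus gene vil1 was at 244, 227 and 300.3 CPM at 5 µM and 142, 199 and 141 CPM at 10 µM (log2 fold change -0.68, SE 0.14, adjusted p = 0.00506). The brush-border peptidase gene anpepb fell from 241 ± 60.2 to 148 ± 10.0 CPM (log2 fold change -0.71, adjusted p = 0.00687). The iron-binding membrane protein gene meltf fell from 43.2 ± 9.82 to 21.4 ± 2.53 CPM (log2 fold change -1.02, adjusted p = 0.00385). The chitinase gene chia.1 was at 195, 72.4 and 145 CPM at 5 µM and 54.1, 50.7 and 51.3 CPM at 10 µM (log2 fold change -1.40, adjusted p = 0.0148). The intestinal median was highest in 5-3 (0.39), yet 5-2 was at -0.10 and the 10 µM libraries at -0.20 to -0.14. The 12 falls became 7 without 5-1, 5 without 5-3, 4 without 10-2, 7 without 10-3 and 6 without 10-4. Of the 29 genes of the exocrine pancreas none passed in either direction by edgeR or DESeq2 (1 had an unadjusted p under 0.05), and 4 were lower without 5-3. The call of chia.1 was lost without 5-1, 10-2 or 10-4.

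Neuronal genes were lower by small amounts in many members. Of the pan-neuronal and presynaptic list, 1 of 83 tested genes rose and 32 fell (median log2 fold change -0.26), 38.6% of it lower. The tubulin gene tuba1c, expressed in growing axons, was at 619, 521 and 732 CPM at 5 µM and 356, 445 and 349 CPM at 10 µM (log2 fold change -0.70, SE 0.12, adjusted p = 0.00282). The neuronal tubulin gene tubb5 fell from 225 ± 36.9 to 136 ± 23.6 CPM (log2 fold change -0.72, adjusted p = 0.00418) and the axon guidance gene dpysl5a from 68.3 ± 8.45 to 48.2 ± 0.910 CPM (log2 fold change -0.50, adjusted p = 0.00379). The RNA-binding protein gene elavl3, a standard marker of differentiated neurons, was at 196, 221 and 271 CPM at 5 µM and 177, 189.8 and 184 CPM at 10 µM (log2 fold change -0.32, SE 0.10, adjusted p = 0.0494), just past the threshold. The median of the list stood at 0.26 in 5-3, at 0.066 and 0.068 in 5-1 and 5-2 and at -0.17 to -0.094 at 10 µM. The single rise was that of the synaptotagmin gene syt2a, from 3.55 ± 1.55 to 7.93 ± 0.933 CPM (log2 fold change 1.16, adjusted p = 0.0135). The 32 falls became 15 without 5-3, 11 without 10-2, 21 without 10-4 and 18 with these 6 libraries alone. The call of elavl3 was lost without 5-2, 5-3, 10-2, 10-3 or 10-4, with these 6 libraries alone and with the length trend removed.

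Among genes of transmitter systems more fell than rose. Of the glutamate list, 5 of 60 tested genes rose and 13 fell (median log2 fold change -0.22). The postsynaptic scaffold gene homer1b was at 40.5, 37.0 and 39.1 CPM at 5 µM and 20.2, 26.0 and 25.6 CPM at 10 µM (log2 fold change -0.70, SE 0.10, adjusted p = 0.0013). The receptor subunit gene gria3b (log2 fold change -0.49, adjusted p = 0.00369) and the glial transporter gene slc1a2a (log2 fold change -0.56, adjusted p = 0.00601) fell. The glutamine synthetase gene glula, which recycles glutamate in glia, rose from 358 ± 22.1 to 517 ± 26.5 CPM (log2 fold change 0.53, adjusted p = 0.00864).

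Of the GABA and glycine list, 2 of 44 tested genes rose and 12 fell (median log2 fold change -0.17). The glycine receptor genes glra1 (log2 fold change -0.46, adjusted p = 0.00505) and glra4a (log2 fold change -0.73, adjusted p = 0.0093) fell. The gene gad1b, for the enzyme that makes GABA, was at 189, 180.3 and 191 CPM at 5 µM and 143, 156 and 139 CPM at 10 µM (log2 fold change -0.36, adjusted p = 0.0101). Of the monoamine and cholinergic list, 2 of 65 tested genes rose and 7 fell (median log2 fold change -0.15), with the nicotinic receptor gene chrna4b falling from 6.46 ± 1.497 to 3.16 ± 0.207 CPM (log2 fold change -1.03, adjusted p = 0.00302). The glutamate falls became 21 without 5-1, 5 without 5-3, 5 without 10-2, 7 without 10-4 and 6 with these 6 libraries alone, those of GABA and glycine 7 without 5-3, 6 without 10-2 and 5 with these 6 libraries alone and those of monoamines 2 without 5-3, 3 without 10-2 and 3 with these 6 libraries alone. The call of gad1b was lost without 10-2.

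Genes of neural progenitors were lower in part, and genes of the glia list passed in both directions. Of the neurogenesis and Notch list, 1 of 64 tested genes rose and 15 fell (median log2 fold change -0.23). The Notch ligand gene dla was lower, from 36.0 ± 6.603 to 23.7 ± 0.526 CPM (log2 fold change -0.60, adjusted p = 0.00438), as were the transcription factor genes ebf2 (log2 fold change -0.83, adjusted p = 0.00584) and neurod6b (log2 fold change -0.61, adjusted p = 0.00402). The progenitor gene sox19a was at 22.005, 16.8 and 32.8 CPM at 5 µM and 11.4, 12.9 and 13.2 CPM at 10 µM (log2 fold change -0.93, adjusted p = 0.0113), a call lost without 5-3 or 10-2. Of clustered protocadherins, which label single neurons, 0 of 33 tested genes rose and 6 fell (median log2 fold change -0.30), and 0 higher and 1 lower passed without 5-3; near-identical copies may share reads there.

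Of the glia and myelin list, 3 of 32 tested genes rose and 4 fell (median log2 fold change -0.28). The rises were those of glula, of csf1ra, which is also counted among the leukocyte markers, and of apoeb. The last rose from 866 ± 354 to 1710 ± 89.1 CPM (log2 fold change 0.98, adjusted p = 0.01), and 5-3 was the lowest library. The radial glia marker gfap was at 192, 156 and 314 CPM at 5 µM and 162, 160.1 and 156 CPM at 10 µM and did not pass (adjusted p = 0.132); 5-3 alone was high and the groups overlapped. The myelin gene mbpa was at 84.7, 68.8 and 99.8 CPM at 5 µM and 69.0, 63.1 and 81.5 CPM at 10 µM (adjusted p = 0.179). The proteolipid gene plp1a fell from 15.2 ± 1.796 to 10.5 ± 0.206 CPM (log2 fold change -0.53, adjusted p = 0.01) and the radial glia fatty acid binder gene fabp7a from 163 ± 29.0 to 112 ± 4.19 CPM (log2 fold change -0.54, adjusted p = 0.00384). The 15 falls of neurogenesis genes became 5 without 5-3, 5 without 10-2, 8 without 10-4 and 8 with these 6 libraries alone, and glia gave 3 higher and 10 lower without 5-2.

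Genes of the visual cycle and of vitamin A handling were among the falls. Of the retinoid list, 2 of 50 tested genes rose and 11 fell (median log2 fold change -0.23). The isomerase gene rpe65a was at 191, 159 and 196 CPM at 5 µM and 115, 106 and 99.5 CPM at 10 µM (log2 fold change -0.77, SE 0.10, adjusted p = 0.000702). The retinal carrier gene rlbp1b was at 90.0, 84.3 and 114 CPM at 5 µM and 50.1, 52.7 and 54.0 CPM at 10 µM (log2 fold change -0.88, SE 0.11, adjusted p = 0.000386). The vitamin A receptor gene stra6 fell from 43.3 ± 3.48 to 26.2 ± 1.04 CPM (log2 fold change -0.72, adjusted p = 0.000298), and the carotenoid and lipoprotein receptor gene scarb1 from 46.7 ± 15.6 to 19.4 ± 2.33 CPM (log2 fold change -1.27, adjusted p = 0.00261). The first 3 genes fell by a similar size with no overlap between groups, and none of the 4 calls was lost when a library was left out. The 11 falls of the list numbered at least 7 in each of the 6 fits without 1 library.

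Of the photoreceptor list, 2 of 59 tested genes rose and 10 fell (median log2 fold change -0.21). The cone kinase gene grk7a was at 133, 124 and 103 CPM at 5 µM and 61.7, 71.3 and 66.4 CPM at 10 µM (log2 fold change -0.85, SE 0.13, adjusted p = 0.00175). The calcium sensor gene rcvrn3 fell from 120.3 ± 11.4 to 64.5 ± 4.26 CPM (log2 fold change -0.90, adjusted p = 0.0013). Of the lens list, 0 of 55 tested genes rose and 26 fell (median log2 fold change -0.35), 47.3% of it lower. The crystallin gene cryba2b was at 741, 587 and 629 CPM at 5 µM and 458, 511 and 456 CPM at 10 µM (log2 fold change -0.46, SE 0.10, adjusted p = 0.00894). The gamma crystallin gene crygm2d15 fell from 205 ± 26.0 to 137 ± 2.82 CPM (log2 fold change -0.58, adjusted p = 0.00535). The lens count depended on single libraries: the 26 falls became 8 without 5-1, 11 without 5-3, 1 without 10-2, 8 without 10-4 and 8 with these 6 libraries alone, while the median without 5-3 was -0.32. Many crystallin genes are near-identical copies. The photoreceptor falls became 4 without 10-2, 6 without 10-3 and 5 without 10-4. The call of cryba2b was lost without 10-2.

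Among muscle genes more fell than rose. Of the sarcomere list, 3 of 82 tested genes rose and 20 fell (median log2 fold change -0.13), 24.4% of it lower. The titin gene ttn.1 was at 2189, 2254 and 2137 CPM at 5 µM and 1475, 1563 and 1551 CPM at 10 µM (log2 fold change -0.52, SE 0.08, adjusted p = 0.00157), and the groups did not overlap. The muscle methyltransferase gene smyd1a fell from 193 ± 3.91 to 111 ± 4.08 CPM (log2 fold change -0.80, adjusted p = 0.00128), the myosin heavy chain gene myhz1.3 from 3266 ± 565 to 1994 ± 163 CPM (log2 fold change -0.71, adjusted p = 0.00303) and the actin gene acta1b from 1304 ± 95.1 to 882 ± 101 CPM (log2 fold change -0.56, adjusted p = 0.00558).

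The 3 rises of that list were those of a pair of ubiquitin ligase genes and of smyhc3, a slow myosin heavy chain gene named after its value was seen (log2 fold change 0.69, adjusted p = 0.0156). The ubiquitin ligase gene fbxo32 (atrogin-1), which marks muscle atrophy in mammals, was at 31.1, 28.1 and 12.1 CPM at 5 µM and 90.1, 72.3 and 94.4 CPM at 10 µM (log2 fold change 1.86, SE 0.26, adjusted p = 0.000989). The other ligase gene, trim63a, rose from 69.2 ± 20.8 to 139 ± 26.5 CPM (log2 fold change 1.01, adjusted p = 0.0038). All 10 µM libraries lay above all 5 µM libraries for both ligase genes, and 5-3 was the lowest. Of muscle calcium genes, 4 of 48 tested genes rose and 8 fell (median log2 fold change -0.087). The gene casq1a, for the calcium buffer of the sarcoplasmic reticulum, was at 182, 141 and 201 CPM at 5 µM and 75.8, 88.8 and 93.1 CPM at 10 µM (log2 fold change -1.02, SE 0.19, adjusted p = 0.00402). The 20 sarcomere falls became 12 without 10-2. None of the single muscle calls named here was lost without 1 library, and that of smyhc3 was lost with these 6 libraries alone.

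Cartilage and bone matrix genes were lower in a large share of the list: 4 of 60 tested genes rose and 23 fell (median log2 fold change -0.29). The matrilin gene matn4 was at 442, 424 and 408 CPM at 5 µM and 239.5, 306 and 274 CPM at 10 µM (log2 fold change -0.64, SE 0.088, adjusted p = 0.000948). Also lower were matn1 (log2 fold change -0.58, adjusted p = 0.00408), epyc (log2 fold change -0.60, adjusted p = 0.0032) and the type IX collagen gene col9a1a (log2 fold change -0.61, adjusted p = 0.00455). The main cartilage collagen gene col2a1a stood at 1424, 1816 and 1497 CPM at 5 µM and 1236, 1549.8 and 1273 CPM at 10 µM and did not pass (adjusted p = 0.204). The bone matrix gene spp1 fell from 8.50 ± 2.27 to 4.31 ± 0.175 CPM (log2 fold change -0.98, adjusted p = 0.0117). Against these, prg4b, for a lubricating proteoglycan, rose from 11.5 ± 4.63 to 30.9 ± 5.00 CPM (log2 fold change 1.43, adjusted p = 0.00175). The 23 falls became 14 without 5-2, 13 without 5-3, 10 without 10-2, 10 without 10-4 and 10 with these 6 libraries alone. The call of spp1 was lost without 5-3.

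Skin genes changed in both directions. Of the epidermis list, 15 of 56 tested genes rose and 9 fell (median log2 fold change 0.056). The keratin genes cyt1 (log2 fold change -1.21, adjusted p = 0.0227), krtt1c19e (log2 fold change -0.96, adjusted p = 0.0115) and krt92 (log2 fold change -0.61, adjusted p = 0.00185) were lower. Another, krt5, was at 1954, 2169 and 1212 CPM at 5 µM and 793, 1229.9 and 1037 CPM at 10 µM (log2 fold change -0.80, adjusted p = 0.0125), with 5-3 below 10-3. The transcription factor gene grhl3, which drives barrier formation, was at 11.3, 12.2 and 7.89 CPM at 5 µM and 28.1, 24.1 and 23.2 CPM at 10 µM (log2 fold change 1.27, SE 0.18, adjusted p = 0.00129). The tight junction gene cldne rose from 89.3 ± 27.6 to 179.7 ± 19.9 CPM (log2 fold change 1.01, adjusted p = 0.00736), the envoplakin gene evpla from 76.2 ± 11.7 to 133 ± 5.99 CPM (log2 fold change 0.80, adjusted p = 0.00131) and krt18a.1, a simple-epithelium keratin gene, from 260.1 ± 35.1 to 401 ± 40.1 CPM (log2 fold change 0.63, adjusted p = 0.00275). The 15 rises became 7 without 5-3 and 6 without 10-2, and the 9 falls 3 without 10-2. The call of cyt1 was lost without 5-2, 10-2 or 10-4 and those of krtt1c19e and krt5 without 10-2.

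Calls of the hormone, clock and sensory lists went in both directions, beside 8.06% higher and 7.34% lower among all genes tested. The share lower was above that of all genes for the clock, thyroid and hatching gland lists. No shift of a list as a whole is read from such counts. Of hair cell and inner ear genes, 2 of 30 tested genes rose and 2 fell (median log2 fold change -0.041), and of hatching gland genes, 1 of 6 tested genes rose and 2 fell (median log2 fold change 0.024). Of the thyroid list, 2 of 21 tested genes rose and 2 fell (median log2 fold change -0.069). The gene dio3b, for the enzyme that inactivates thyroid hormone, was at 7.51, 6.67 and 2.56 CPM at 5 µM and 23.2, 12.4 and 16.9 CPM at 10 µM (log2 fold change 1.66, SE 0.34, adjusted p = 0.00553). The receptor gene thrb fell from 39.2 ± 1.69 to 23.9 ± 2.66 CPM (log2 fold change -0.71, adjusted p = 0.00157). Another receptor gene, thraa, went the other way, from 6.67 ± 0.533 to 8.93 ± 0.0879 CPM (log2 fold change 0.42, adjusted p = 0.0496), just past the threshold. Of clock genes, 3 of 45 tested genes rose and 7 fell (median log2 fold change -0.13). The activator gene clocka rose from 14.4 ± 0.898 to 24.8 ± 2.56 CPM (log2 fold change 0.78, adjusted p = 0.00119) and the repressor gene ciarta fell from 101 ± 21.7 to 57.2 ± 2.88 CPM (log2 fold change -0.83, adjusted p = 0.00921). No collection time is given in the sources used here. Of the cortisol list, 3 of 32 tested genes rose and 1 fell (median log2 fold change 0.066), and of islet and gluconeogenesis genes, 1 of 35 tested genes rose and 2 fell (median log2 fold change -0.12). Without 10-2 the thyroid list gave 1 higher and 1 lower, the clock list 1 higher and 2 lower, the cortisol list 0 higher and 1 lower and the islet list 1 higher and 1 lower; without 5-1 the clock list gave 4 higher and 1 lower.

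Lists for pigment cells, kidney, heart, vessels, blood and the cell cycle are given beside the 15.4% of all genes tested that passed. The share that passed was above this for the iridophore, xanthophore and purine list and for pronephros markers. It was below this for the other lists. Of the iridophore, xanthophore and purine list, 2 of 44 tested genes rose and 7 fell (median log2 fold change -0.14). The purine enzyme gene pnp4a of iridophores fell from 20.6 ± 2.06 to 10.6 ± 0.446 CPM (log2 fold change -0.95, adjusted p = 0.00329) and the pteridine enzyme gene gch2 from 59.7 ± 16.4 to 35.2 ± 3.21 CPM (log2 fold change -0.76, adjusted p = 0.0071). Of melanophore genes, 1 of 25 tested genes rose and 2 fell (median log2 fold change -0.16), and of pronephros markers, 3 of 34 tested genes rose and 6 fell (median log2 fold change -0.22). Of heart genes, 3 of 32 tested genes rose and 1 fell (median log2 fold change 0.14), and of endothelial and lymphatic genes, 3 of 45 tested genes rose and 3 fell (median log2 fold change -0.061). The scavenger receptor gene stab1 rose from 24.8 ± 0.814 to 38.6 ± 2.41 CPM (log2 fold change 0.64, adjusted p = 0.000702). Of erythroid genes, 2 of 33 tested genes rose and 2 fell (median log2 fold change 0.061), and of cell cycle genes, 1 of 65 tested genes rose and 4 fell (median log2 fold change -0.088). Without 10-2 these lists, in the same order, gave 1 higher and 4 lower, 0 higher and 0 lower, 1 higher and 1 lower, 0 higher and 1 lower, 3 higher and 0 lower, 0 higher and 0 lower and 0 higher and 0 lower.

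Counts for the respiration and ribosome lists depended on whether a trend in gene length was removed. Of nuclear genes of oxidative phosphorylation, 9 of 80 tested genes rose and 0 fell (median log2 fold change 0.16); with a trend in gene length removed the median was 0.025 and 3 rises were left. The complex I gene ndufv3 rose from 17.0 ± 2.37 to 31.3 ± 2.70 CPM (log2 fold change 0.88, adjusted p = 0.000702) and kept its call. Of ribosomal protein genes, 5 of 75 tested genes rose and 0 fell (median log2 fold change -0.065), and with the trend removed 26 fell and 1 rose (median -0.21). Of genes of the mitochondrial genome, 2 of 13 tested genes rose and 1 fell (median log2 fold change -0.19). Among them mt-atp8 was at 46.2, 31.0 and 43.8 CPM at 5 µM and 181, 49.9 and 192 CPM at 10 µM (log2 fold change 1.804, adjusted p = 0.00368), a short gene that overlaps its neighbour, and its call was lost with the trend removed. That of mt-nd4l, another short gene, was lost as well (log2 fold change 0.51, adjusted p = 0.00223), and its sign turned (-0.068). With the trend removed 0 genes of this list rose and 5 fell.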

How the data were processed

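RNA-seq of whole AB larvae at 120 hpf was deposited as a gene table with estimated counts per library, whole numbers for 32520 genes per the file headers and values, of which 5419 were 0 in all libraries. RPKM values deposited by the authors beside them, per the file headers, served only to recover gene length in 12 libraries. RNA was extracted with RNAzol and libraries were quantified with a KAPA kit, per the labels' protocols. The aligner, the counter, the genome build, the annotation and the use of strand are not named in the sources used here. Left unused were 18 columns of single libraries beside the gene counts and 45 in the file by transcript. Where a symbol named several genes, the one with the highest mean CPM was taken.

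Counts of all 15 libraries were fitted as 5 group means with edgeR 4.0.16 (R 4.3.3, limma 3.58.1). TMM scaling, filterByExpr and the quasi-likelihood F test were used, and 21477 genes were left. Calls used the two-sided p, adjusted by Benjamini-Hochberg over all tested genes, at 0.05, and SE is the log2 fold change divided by the square root of F. The biological coefficient of variation was 13.0%. Log2 CPM for the principal components used a prior count of 2. Libraries held 11956657 to 19978125 counts, so genes with few reads are measured with the least precision. The model code was tested on simulated data with changes set between 10 and 5 µM. It called 30% of 70 genes changed 1.5-fold, 73.4% of 64 changed 2-fold and 83.3% of 66 changed 3-fold, and 9 unchanged genes. Among the 21285 genes tested there, far fewer were changed than were called in the real data. These shares therefore need not hold for the real data, and genes that did not pass may still differ. The columns of the 10 µM group carry other numbers than its sample titles, so they were assigned by group only and not paired.

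The members and the 50 gene lists were chosen with earlier results of these data known. Of the lists' symbols, 93.7% were in the table. Genes named were the 14 largest falls and 14 largest rises among calls with at least 1 CPM in the higher group, no overlap between groups and a gene symbol other than a clone name. To these were added the 5 smallest p in each direction, up to 4 calls per list (2 genes where none passed) and cyp1a, elavl3, mbpa, gfap, cyp7a1, fabp10a, abcb11b and angptl4. Chosen after their values were seen were acta1b, atp1a1a.3, ca2, cat, cebpb, chia.1, cldne, col2a1a, col9a1a, cyp2k6, cyp2x12, cyt1, fabp6, fads2, fga, foxi3b, fthl28, gad1b, gcm2, hspa5, igfbp5a, il1b, junba, krt5, krtt1c19e, matn1, mmp9, mpeg1.1, mpx, myhz1.3, plp1a, prss1, ptgs2b, slc12a10.2, smyhc3, sox19a, spp1, syt2a, trim63a, trpv6 and unc45b. Alternatives were DESeq2 1.42.0, its size factors, no filter, a filter of 5 CPM in 3 libraries, the 6 libraries alone, each of the 6 left out in turn, removal of a lowess trend (span 0.3) in gene length, a replicate block and, added after seeing the data, all fits without the 4 libraries numbered 1. Tables and plots were made with Python 3.11.15, pandas 2.3.3 and matplotlib 3.10.9.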

Additional observations from a re-analysis of the deposited data

How the results depend on the processing

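The 3309 calls stayed within 1.5 times of that number with DESeq2 (3275), its size factors (3313), no filter (3047), a stricter filter (3190), the length trend removed (3425) and without the 4 libraries numbered 1 (3451, chosen after seeing the data). Similar totals did not mean the same genes. Of the 3309, 3057 were called again in the same direction with DESeq2 and 3116 with the length trend removed. Only 2602 were called again without 5-1 and 2500 without the 4 libraries numbered 1. With the 6 libraries alone there were 1807 calls (1016 higher, 791 lower), and 1532 (876 and 656) when 5-3 was also left out. Leaving out 1 library gave 1092 to 3464 calls, 618 to 1801 higher and 474 to 1663 lower. Of the 206 calls among the genes chosen for naming, 72 lost the call without 10-2, 45 without 5-3 and 34 without 10-4. The causes were not tested.

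The signs of 2 pancreatic genes that had not passed turned: cpa1 (-0.84 in log2) and prss1 (-0.078) came to 0.0080 and 0.36 without the 4 libraries numbered 1, and leaving out 1 library gave -1.27 to 0.016 and -0.49 to 0.37. With the length trend removed the sign also turned for fabp10a (from 0.15, not called, to -0.16) and for mt-nd4l (from 0.51, called, to -0.068, not called).

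The numbers of the 10 µM columns do not match the sample titles, so they were not taken to pair the samples. A fit was run with the number as a replicate block in the other groups only, the 10 µM libraries being set to the average block. It gave 4474 calls, with prss1 at a log2 fold change of 0.0011. Deviations of libraries with the same number correlated at 0.376 to 0.623 for number 1 (6 pairs), -0.167 to 0.630 for numbers 2 and 3 (12 pairs), and -0.282 to 0.235 between 10 and 5 µM (9 pairs of any numbers). With 3 libraries a group and a coefficient of variation of 13.0%, small changes and genes with few reads are the least certain.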
